A study of Mus musculus with 8 samples.

Results

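Trimethylation of histone H3 at lysine 36 (H3K36me3) over gene bodies was compared between Setd2 knockout (KO) and wild-type (WT) pancreatic tumour cells for all 25440 genes of the deposited table. It was measured in 2 of the 8 libraries of the series, 1 a side, and genes were grouped by their span, the distance between the gene start and end that the table gives for 18180 of them. The cells were cultured tumour cells from murine pancreatic ductal adenocarcinoma on a C57BL/6 background. The KO cells lacked Setd2 and the WT cells carried it. No other allele, agent, passage or clone number is given in the labels, so how many clones each genotype stands for is not known. The method was CUT&Tag, in which an antibody tethers a transposase to chromatin that carries the mark, and the DNA cut there is sequenced. The other 6 libraries measured promoter H3K27ac, a mark of active promoters, in a pair without and a pair with the label vitro, and promoter H3K27me3, a mark of Polycomb repression.

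In mammalian cells SETD2 turns dimethylated H3K36 into its trimethylated form. It travels with elongating RNA polymerase II, so H3K36me3 normally lies over the bodies of transcribed genes and increases from the start towards the end of the gene. Proteins with PWWP or chromo domains read the mark and bring DNA methyltransferases, splicing regulators and DNA repair factors, and the KDM4 family removes it.

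With 1 library per genotype there is no replicate error, no test was run, and each difference below is between 2 libraries. Signal is given per kilobase (kb) of gene body, the deposited value times 1000. A ratio is log2((KO + 2.63) / (WT + 2.63)), where 2.63 per kb is the 25th percentile of the positive values, and 15544 genes whose mean over the pair reached that floor were given a ratio. A pooled level is the sum of signal times span over the sum of spans, with no floor and no filter. Multiplied by the RefSeq gene span, the deposited values of part of the short genes fell on multiples of 1 step in each library, 0.707 in KO and 0.700 in WT. Among positive genes under 20 kb, the product was a whole number of hundredths in 59.9% in KO and 59.7% in WT. The step was fitted on those of them with a low product, 1909 of 7736 positive genes in KO and 1314 of 6739 in WT. Of the genes used, 91.0% in KO and 85.3% in WT lay on it. Values divided by the step are called tags below. They estimate the sequenced fragments behind a value up to an unknown factor, and many are not whole. A difference shared by all genes would not be visible after scaling to a common total, and whether such a total was used is not given in the sources used here.

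Over long genes the KO library had nearly the same H3K36me3 level as the WT library. Genes of at least 100 kb, 2281 in number and 556 megabases (Mb) in sum, had a pooled level of 3.82 per kb in KO and 3.90 per kb in WT (log2 -0.03). The pooled level was lower in KO in each of the other 5 span classes: 4.38 against 4.80 per kb in WT at 50 to 100 kb (log2 -0.13), 4.93 against 5.52 at 20 to 50 kb (log2 -0.16), 5.56 against 6.32 at 10 to 20 kb (log2 -0.19), 6.25 against 6.92 at 3 to 10 kb (log2 -0.15) and 7.82 against 8.00 under 3 kb (log2 -0.03). Both libraries therefore had less signal per kb in longer genes, in the same order of classes. The value under 3 kb depends on how genes are weighted: the plain mean over these 1536 genes was 6.97 per kb in KO and 11.0 per kb in WT (log2 -0.66). The 7260 genes without coordinates had a mean of 4.61 per kb in KO and 4.59 per kb in WT.

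**Figure D1:**
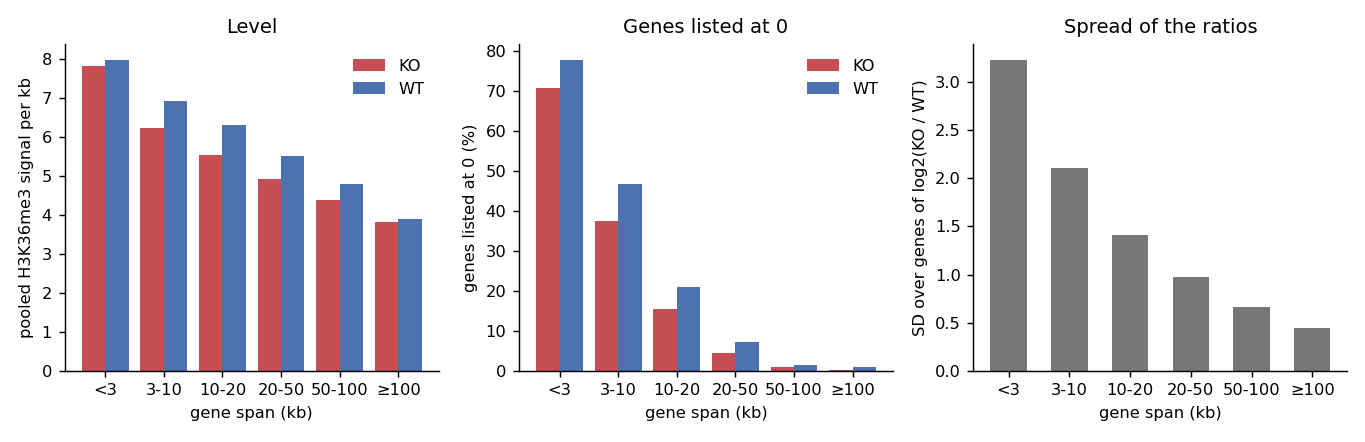
H3K36me3 by gene span, 1 library per genotype, with span classes in kb on each x axis. Left, pooled signal per kb, 3.82 in KO and 3.90 in WT at 100 kb and above; middle, percent of genes listed at 0, 70.7% in KO and 77.9% in WT under 3 kb; right, SD over genes of the log2 ratio, 3.23 under 3 kb and 0.44 at 100 kb and above. No error bars can be drawn without replicates.

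Genes differed from one another far more in short genes than in long ones. The SD of the ratio over genes was 3.23 under 3 kb, 2.10 at 3 to 10 kb, 1.41 at 10 to 20 kb, 0.98 at 20 to 50 kb, 0.66 at 50 to 100 kb and 0.44 at 100 kb and above. The Spearman correlation across genes between the KO and WT levels was 0.18 under 3 kb, 0.10 at 3 to 10 kb, 0.17 at 10 to 20 kb, 0.22 at 20 to 50 kb, 0.32 at 50 to 100 kb and 0.48 at 100 kb and above, where the points share 2 libraries and genes are not independent replicates. The Pearson correlation was -0.00 under 3 kb and 0.61 at 100 kb and above, and the second value was 0.45 without Chl1, a choice made after seeing the data. The share of genes listed at 0 under 3 kb was 70.7% in KO and 77.9% in WT. At 100 kb and above it was 0.263% in KO and 0.833% in WT.

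Calls followed the same order. Differences of 2-fold or more were found in 3118 genes with a higher KO level (20.1% of those past the floor) and 3192 with a lower one (20.5%). Of these genes 50.3% were listed at 0 in 1 of the libraries. Under 3 kb, 280 of 562 genes past the floor were higher (49.8%) and 208 lower (37%). At 3 to 10 kb, 883 of 2466 were higher (35.8%) and 869 lower (35.2%), and at 10 to 20 kb, 593 of 2613 were higher (22.7%) and 681 lower (26.1%). At 20 to 50 kb, 482 of 3690 were higher (13.1%) and 638 lower (17.3%), and at 50 to 100 kb, 99 of 1895 were higher (5.22%) and 141 lower (7.44%). At 100 kb and above, 21 of 1848 were higher (1.14%) and 30 lower (1.62%). A gene that passed the floor through 1 library alone had to differ, which touches short genes most.

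The recovered tags give the depth behind these values. Genes with a RefSeq span under 3 kb held a mean of 9.18 tags in KO and 9.86 in WT, and 79.9% in KO and 84.0% in WT were at 0. The genes of that class that were not at 0 held a median of 31.5 tags in KO and 42.6 in WT. Genes with a RefSeq span of at least 100 kb held a mean of 1337 tags in KO and 1370 in WT. The squared deviation of KO tags from the class share was on average 50.1 times that of random counting under 3 kb. It was 107 times at 100 kb and above, and the unknown factor of the tags scales both values. What produced this spread was not tested.

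The table's span is not always the span over which the signal was averaged. For 14727 genes, 81.0% of those with coordinates, the RefSeq span was within 10% of the table's span. The selection of these genes was made after seeing the data, and they are called genes with agreeing spans below. Ccl1, a chemokine gene, has 129 kb in the table and 3.15 kb in RefSeq. Its 33.9 per kb in KO, against a value listed at 0 in WT, therefore belongs to the short genes. Of the 6 genes with the highest mean among those of at least 100 kb by the table, 4 had such a disagreement.

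Among the 2014 genes of at least 100 kb with agreeing spans, the KO and WT levels correlated across genes at 0.49 (Spearman) and 0.67 (Pearson), with a Pearson value of 0.49 without Chl1, the highest gene. Of the 1643 past the floor, 98.1% had a ratio within 2-fold and 86.4% within 1.5-fold, with 2.63 per kb added to both sides. At least 2-fold higher in KO were 13 of these genes (0.791%), and 18 were at least 2-fold lower (1.1%). Over all 2014 genes, with those under the floor, the 5th, 50th and 95th percentiles of the level were 1.65, 3.70 and 7.22 per kb in KO. In WT they were 1.53, 3.79 and 8.03 per kb.

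**Figure D2:**
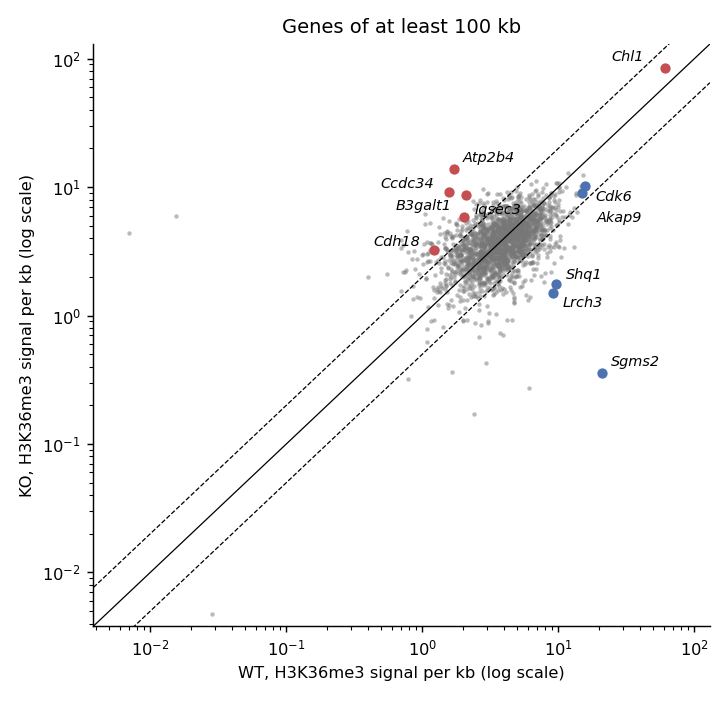
Genes of at least 100 kb with agreeing spans, signal per kb in KO (y axis) against WT (x axis), both on log scales, 1 point a gene; a gene listed at 0 in WT, Maml2, is left out. Named genes are red where higher in KO and blue where lower. The solid line marks equal levels and the dashed lines 2-fold differences of the plain values; Sgms2 lies at 0.354 in KO and 20.8 in WT, and Chl1, the highest, at 83.8 in KO and 61.2 in WT.

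Sgms2, which encodes a sphingomyelin synthase of the plasma membrane (chr3:131318985-131491411 in mm10, minus strand), had 0.354 per kb in KO and 20.8 per kb in WT, about 86.5 and 5123 tags (log2 -2.97). Its WT level was above the 95th percentile of the long genes and its KO level below the 5th. The other genes that start within 1 Mb of it and do not overlap it had a pooled log2 ratio of -0.48. Lrch3, a gene of the leucine-rich repeat and calponin homology family, had 1.498 per kb in KO and 9.20 per kb in WT (log2 -1.52), and it overlaps Iqcg. Shq1, an assembly factor of H/ACA ribonucleoproteins, had 1.76 per kb in KO and 9.54 per kb in WT (log2 -1.47). The neighbours of Shq1 had a pooled log2 ratio of -0.04.

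Atp2b4, which encodes a plasma membrane calcium pump (chr1:133699457-133801041 in mm10, minus strand), had 13.8 per kb in KO and 1.70 per kb in WT, about 1917 and 239 tags (log2 1.92). Ccdc34, a coiled-coil protein gene, had 9.17 per kb in KO and 1.58 per kb in WT (log2 1.49). Iqsec3, an exchange factor for ARF GTPases at inhibitory synapses, had 8.61 per kb in KO and 2.09 per kb in WT (log2 1.25). The neighbours of these genes had pooled log2 ratios of 0.22, 0.24 and 0.00, in the order named. Spsb1, an adaptor of ubiquitin ligases, was the gene of 50 to 100 kb with the highest KO level among the 3 highest ratios of that class, with 15.9 per kb in KO and 3.17 per kb in WT.

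Chl1, a neural cell adhesion gene (chr6:103510586-103750211 in mm10, plus strand), was the highest of the long genes with agreeing spans in both libraries, with 83.8 per kb in KO and 61.2 per kb in WT. Cdk6, a kinase of the G1 phase, had 10.1 per kb in KO and 15.6 per kb in WT. Flt1, a receptor for vascular endothelial growth factor, had 12.5 per kb in KO and 15.1 per kb in WT. After Chl1, the highest long gene with an agreeing span was Atp2b4 in KO and Sgms2 in WT.

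Measured as signal times span among genes with agreeing spans, the largest excess in KO came from Chl1, followed by genes of 557 to 1612 kb. B3galt1, a galactosyltransferase gene, had 5.86 per kb in KO and 2.04 per kb in WT. Auts2, a regulator of neuronal development, had 5.001 per kb in KO and 3.18 per kb in WT. Cdh18, a neuronal cadherin, had 3.26 per kb in KO and 1.22 per kb in WT. Sgcd, a subunit of the muscle sarcoglycan complex, had 5.52 per kb in KO and 4.04 per kb in WT, and Fhit, which spans a common fragile site, had 3.64 per kb in KO and 2.67 per kb in WT.

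By the same measure among genes with agreeing spans, the largest deficit after Sgms2 came from Cdk14, a cyclin-dependent kinase, with 8.68 per kb in KO and 13.4 per kb in WT. Arhgap26, a GTPase-activating protein for RHOA, had 3.92 per kb in KO and 6.51 per kb in WT. Nrg1, a ligand of the ERBB receptors, had 2.43 per kb in KO and 4.18 per kb in WT. Ptprn2, a phosphatase-like protein of secretory granules, had 3.17 per kb in KO and 5.53 per kb in WT, and Sorcs2, a receptor for neurotrophin precursors, had 5.39 per kb in KO and 10.2 per kb in WT. By the spans of the table alone, Fgfr2, Rasgef1b and 1700041M19Rik, whose spans disagree with RefSeq, had larger deficits than Sgms2, and Ccl1 had the largest excess after Chl1.

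Shorter genes at the ends of the ranking included wide differences in both directions. Zbtb5, a zinc finger gene of 20 to 50 kb, had 0.467 per kb in KO and 21.98 per kb in WT, about 14.0 and 665 tags. Sdf4, a calcium-binding protein of the Golgi in the same class, had 15.3 per kb in KO and 0.270 per kb in WT, about 450 and 8.00 tags. Cbx7, a Polycomb chromodomain protein, had 3.06 per kb in KO and 22.8 per kb in WT. Araf, a RAF kinase, had 10.9 per kb in KO and 2.04 per kb in WT. Cbx7 overlaps Apobec3, and Araf overlaps Syn1.

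Under 20 kb the named genes included Tk1, the S-phase thymidine kinase, with 2.22 per kb in KO and 46.3 per kb in WT. Oas2, an interferon-induced synthetase, had 15.9 per kb in KO and 0.0359 per kb in WT, where 1 tag lay in the gene. Klf2, a Krüppel-like transcription factor, had 86.9 per kb in KO and 7.56 per kb in WT, and Rps21, a ribosomal protein gene, had 9.94 per kb in KO and 123 per kb in WT. Lgals1, which encodes galectin-1, had 1.89 per kb in KO and 45.1 per kb in WT. Irx1, a homeobox gene, had 28.3 per kb in KO and 0.127 per kb in WT.

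Some genes of 20 kb or more with agreeing spans were listed at 0 in 1 library although the other held many tags. Mthfd2, a mitochondrial enzyme of folate metabolism, had 22.03 per kb in KO, about 633 tags, and was listed at 0 in WT. Hagh, the glyoxalase that hydrolyses lactoylglutathione, was listed at 0 in KO and had 24.1 per kb in WT, about 850 tags. Cxxc5, a CXXC zinc finger protein, was likewise listed at 0 in KO and had 21.0 per kb in WT, about 968 tags. No fold is given for these genes, since an exact 0 may be a failed estimate.

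The Setd2 gene body itself had 2.32 per kb in KO and 2.38 per kb in WT, under the floor. This value is the mark over the locus and checks neither the deletion nor the enzyme.

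H3K36me3 followed promoter activity in both libraries, with a smaller contrast in KO. All genes of the table were placed in 5 groups of equal size by the mean promoter H3K27ac of the pair without the vitro label, which shares no library with H3K36me3. In genes of at least 100 kb the pooled level per kb was 3.03 in KO and 2.83 in WT in the lowest group, 3.69 and 3.64 in the second, 4.02 in KO and 4.13 in WT in the third, 4.09 in KO and 4.41 in WT in the fourth, and 4.45 in KO and 4.76 in WT in the highest. The highest group was thus 1.47-fold above the lowest in KO and 1.68-fold above it in WT. Pooled levels were higher in KO in the lower 2 groups and lower in KO in the upper 3. Over genes past the floor, the median ratio was 0.02 in the lowest group and -0.03 in the second. Pooled levels weight genes by span, and these groups were not rerun without the highest genes.

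**Figure D3:**
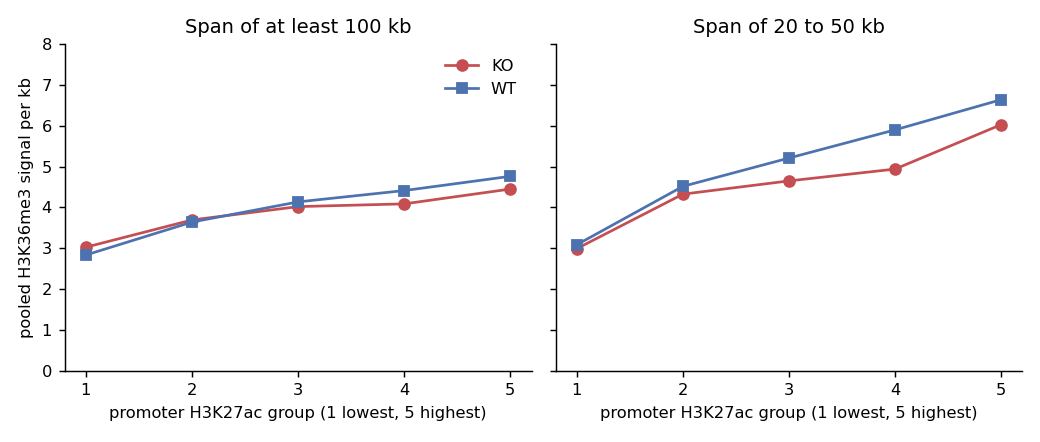
Pooled H3K36me3 signal per kb (y axis) in KO and WT over 5 groups of promoter H3K27ac without the vitro label (x axis, 1 lowest to 5 highest), 1 library per genotype. Left, genes of at least 100 kb, where the lines cross between groups 2 and 3; right, genes of 20 to 50 kb, where the highest group was 2.02-fold above the lowest in KO and 2.15-fold in WT.

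The contrast over all genes of at least 20 kb was 1.63-fold in KO and 1.88-fold in WT. With groups made from the vitro pair it was 1.42-fold in KO and 1.59-fold in WT at 100 kb and above. Under 3 kb the order turned with the grouping, 3.11-fold in KO against 2.52-fold in WT with the pair without the vitro label, and 2.33-fold in KO against 3.27-fold in WT with the vitro pair. Groups by promoter H3K27me3 differed little, 1.12-fold in KO and 1.08-fold in WT at 100 kb and above. No replicate gives the error of these contrasts, and whether background tags take a different share of each library was not tested.

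Lists of long genes with a state of transcription assumed from other cells, and not measured here, also differed little in level. The widely transcribed long genes, 46 genes used by most cell types, had a pooled level of 3.29 per kb in KO and 3.66 per kb in WT. The silent long neuronal genes, 50 genes of synapses and muscle of which 36 have coordinates, had 2.90 per kb in KO and 2.69 per kb in WT. The first list was 1.14-fold above the second in KO and 1.36-fold in WT. Its median span was 184 kb, against 1120 kb in the second. Signal per kb was lower in longer genes, so transcription and span cannot be told apart in this contrast. None of the transcribed genes exceeded the highest silent gene in KO (0 of 46), and 4 of 46 did in WT, so the lists overlapped in both libraries.

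Of the 36 widely transcribed genes past the floor, 6 were at least 1.5-fold lower in KO and 1 was higher (background for all genes 30.3% lower and 27.1% higher, and for genes of at least 100 kb 8.23% and 6.6%). Their median ratio was -0.04, as was the median over all genes of at least 100 kb. Atrx, a chromatin remodeller, had 1.27 per kb in KO and 4.72 per kb in WT. Trip12 and Huwe1, both ubiquitin ligases, had 1.99 and 1.46 per kb in KO and 4.79 and 3.91 per kb in WT in that order. Of the 26 silent genes past the floor, 0 differed by 1.5-fold. Csmd2, the highest of them, had 6.20 per kb in KO and 6.45 per kb in WT, and Tenm2, a teneurin of synapses, had 4.35 per kb in KO and 4.01 per kb in WT.

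Of 28 members past the floor, among 32 writers, erasers and readers, 5 exceeded WT by 1.5-fold or more and 6 lay below WT by as much, no more than the 27.1% and 30.3% over all genes, with a median ratio of -0.13 against -0.08 over all genes. Among the writers, Nsd1, which adds the first methyl groups to H3K36, had 3.90 per kb in KO and 4.67 per kb in WT, Nsd2 had 4.07 per kb in KO and 6.66 per kb in WT, and Ash1l had 4.19 per kb in KO and 4.24 per kb in WT. Among the erasers, Kdm4b had 11.1 per kb in KO and 9.01 per kb in WT and Kdm4a had 8.08 per kb in KO and 1.82 per kb in WT. Among the readers, Phf1, a Polycomb-associated protein, had the widest ratio, with 0.887 per kb in KO and 16.7 per kb in WT, and Pwwp2a had 7.52 per kb in KO and 1.27 per kb in WT. Msh6, a mismatch repair protein, had 4.06 per kb in KO and 13.7 per kb in WT. Dnmt3b, a DNA methyltransferase, had 2.31 per kb in KO and 7.33 per kb in WT, while its paralogue Dnmt3a had 9.15 per kb in KO and 10.02 per kb in WT.

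In the elongation list, 9 of 24 members past the floor exceeded WT by 1.5-fold or more and 4 lay below WT by as much (median ratio 0.17), against 27.1% and 30.3% over all genes. Cdk9, the kinase of P-TEFb, had 22.8 per kb in KO and 8.59 per kb in WT. Supt6, a histone chaperone that travels with the polymerase, had 9.33 per kb in KO and 4.58 per kb in WT. Ssrp1, a FACT subunit that overlaps a neighbouring gene, had 1.59 per kb in KO and 28.3 per kb in WT. Splicing factors had 10 of 42 higher and 11 lower (median ratio -0.05), near those shares. Among their 25 members of at least 20 kb past the floor, 1 was higher and 9 lower (median ratio -0.32, background for genes of at least 20 kb 16.6% higher and 22.9% lower). At that span the elongation list had 7 of 18 higher and 2 lower. The list of writers, erasers and readers had 4 of 24 higher and 4 lower.

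Lists of short genes held many zeros. Of 85 ribosomal protein genes, 40 had a value of 0 in KO and 44 did in WT. Among the 54 past the floor 20 were at least 1.5-fold higher and 26 lower, and the median span of the list was 3.265 kb. The background was 287 and 224 of 562 under 3 kb, 989 and 1034 of 2466 at 3 to 10 kb, and 27.1% and 30.3% over all genes. Of 1110 olfactory receptor genes, 924 had a value of 0 in KO and 998 did in WT. Among the 228 past the floor 142 were higher and 81 lower. Only 73 of the 1110 have coordinates, with a median span of 6.88 kb. The background was 909 and 789 of 2470 over genes without coordinates, and 989 and 1034 of 2466 at 3 to 10 kb. Zinc finger ZFP genes, a class that carries H3K36me3 together with H3K9me3, had 75 of 282 higher and 92 lower (median ratio -0.15), close to the background. Replication-dependent histone genes had 14 of 63 past the floor, with 7 higher and 6 lower.

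The labelled cell type did not stand out in these values. The pooled level of the epithelial list was 4.34 per kb in KO and 5.06 per kb in WT, inside the range of the fibroblast, leukocyte, endothelial and acinar lists, 3.36 to 7.14 per kb in KO and 4.33 to 7.08 per kb in WT. Krt8, a keratin of simple epithelia, had 28.9 per kb in KO and 17.8 per kb in WT. Vim, the mesenchymal filament vimentin, had 52.7 per kb in KO and 17.8 per kb in WT. Each is the highest KO value of its list and does not stand for the list. The median ratio past the floor was 0.02 over the epithelial list and 0.13 over the mesenchymal list. Over their members of at least 20 kb it was -0.17 and -0.23 in that order. The fibroblast list had 2 of 11 members past the floor higher in KO and 8 lower (median ratio -0.68), against 27.1% and 30.3% over all genes, among them Pdgfrb with 6.52 per kb in KO and 14.7 per kb in WT. Its defining members Thy1 and S100a4 were listed at 0 in both libraries. At 20 kb and above the fibroblast list had 2 of 7 members past the floor higher and 5 lower, against 16.6% and 22.9% of all such genes. Of the other lists, counted by the same 1.5-fold rule and to be read against the same 27.1% higher and 30.3% lower, pancreatic cancer drivers had 4 of 23 higher and 3 lower, receptor and MAPK genes 7 of 34 and 12, mesenchymal markers 8 of 23 and 4, epithelial markers 12 of 32 and 10, leukocyte markers 6 of 15 and 6, endothelial markers 4 of 13 and 2, acinar markers 2 of 11 and 4, Hox genes 12 of 20 and 7, and clustered protocadherins 7 of 32 and 7, in the same order. These lists differ in span, on which the shares depend. Hox genes with coordinates had a median span of 3.50 kb, and over all genes of 3 to 10 kb 989 of 2466 were higher and 1034 lower. Fewer cells of a type and less signal per cell cannot be told apart in bulk libraries.

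The ratio varied between chromosomes. Over genes of at least 20 kb, chromosome 1 had the highest pooled ratio, with 4.46 per kb in KO and 3.83 per kb in WT (log2 0.22). The lowest were chromosome 18, with 3.65 per kb in KO and 4.50 per kb in WT (log2 -0.30), and chromosome 5, with 4.45 per kb in KO and 5.47 per kb in WT (log2 -0.30). Chromosome X had the lowest level of all, 2.08 per kb in KO and 2.22 per kb in WT. Of 18 windows of 10 Mb on chromosome 1, 14 had more signal in KO, against 100 of 255 over the genome.

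Libraries of other marks also differed between chromosomes. Chromosome 1 had the highest pooled ratio in promoter H3K27ac without the vitro label (log2 0.77), in the vitro pair (log2 0.55) and in promoter H3K27me3 (log2 0.58). The lowest was chromosome X in H3K27ac without the vitro label (log2 0.21), chromosome 18 in the vitro pair (log2 -0.50) and chromosome 3 in H3K27me3 (log2 0.13), and chromosome 5 was the lowest in none of them. Over 20 chromosomes the H3K36me3 ratio correlated with these at 0.63, 0.81 and 0.79 in that order (Pearson, a description over chromosomes that share the 8 libraries). Over the 255 windows the correlations were 0.33, 0.33 and 0.26. The KO and WT levels of H3K36me3 correlated at 0.81 over the windows. Whether the number of chromosome copies differs between the 2 cell populations was not tested.

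**Figure D4:**
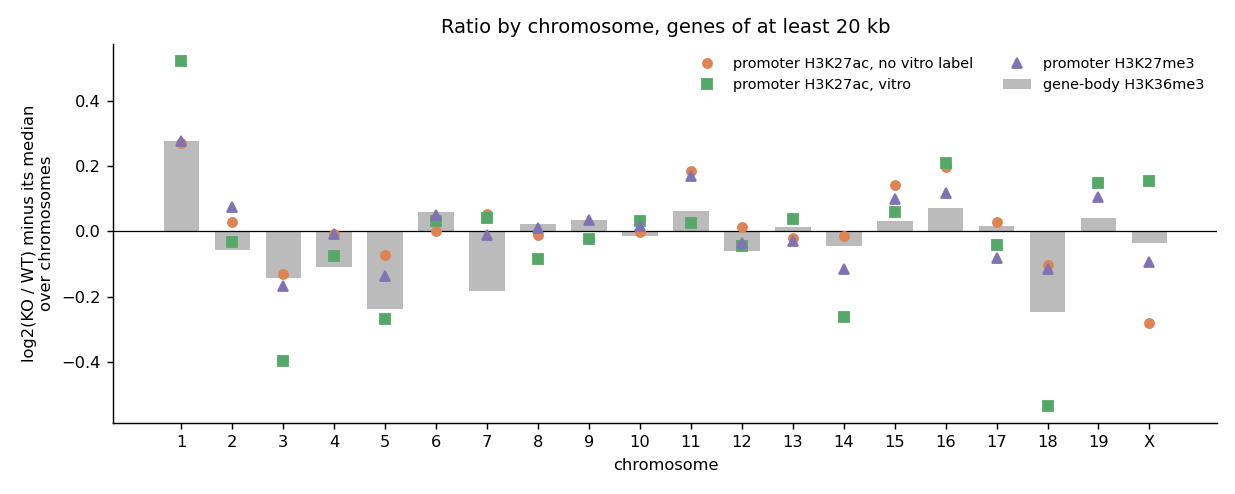
Pooled log2 ratio of KO over WT by chromosome for genes of at least 20 kb, each series minus its own median over chromosomes (y axis). Bars are gene-body H3K36me3 and markers the 3 promoter pairs, 1 library per genotype. Chromosome 1 is the highest in all 4 series, and chromosomes 3, 4, 5, 14 and 18 lie below the median in all 4.

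Taken over all chromosomes together, the ratio of a long gene was only weakly correlated with that of its neighbours. Over 1768 genes of at least 100 kb, the ratio correlated at 0.08 (Pearson) and 0.09 (Spearman) across genes with the pooled ratio of neighbours within 1 Mb, and 53.9% had the same sign as their neighbours. Of the 255 windows 155 were lower in KO, 11 of them by at least 1.5-fold, and 0 were higher by as much. Several of the lowest windows turned on 1 gene. The window from 90 to 100 Mb on chromosome 5 had a log2 ratio of -0.77, and -0.13 without Rasgef1b, whose spans disagree.

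In the first 10 Mb of chromosome 5, most genes of at least 20 kb were lower in KO. The 29 genes of at least 20 kb there, from Cdk6 to Elapor2 (chr5:3341485-9481825 in mm10), had a pooled level of 7.33 per kb in KO and 12.2 per kb in WT (log2 -0.73, and -0.77 without Cdk14, the longest). This was the highest WT level of any window (0 of 255 higher), and 3 windows were higher in KO. Of the 29 genes 24 were lower in KO, against 56.3% of all such genes past the floor, 15 of them by at least 1.5-fold, and 1 was higher by as much. The window was picked out with these ratios in view, so its counts describe it and support nothing. A lower ratio was found at 40 to 50 Mb on chromosome 14 (log2 -1.05, and -0.51 without Ear1). The same held for 40 to 50 Mb on chromosome 3 (log2 -0.77, and -0.56 without Hspa4l) and 90 to 100 Mb on chromosome 5. Outside the first 10 Mb, the other 583 genes of chromosome 5 had 4.32 per kb in KO and 5.15 per kb in WT (log2 -0.25).

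**Figure D5:**
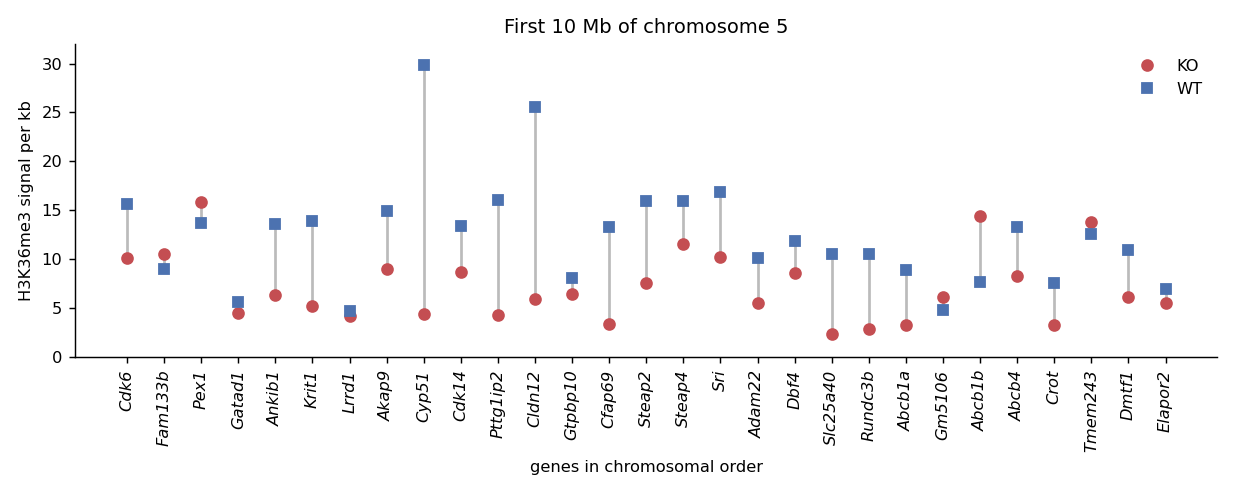
H3K36me3 signal per kb (y axis) in KO and WT for the 29 genes of at least 20 kb in the first 10 Mb of chromosome 5, in chromosomal order (x axis), 1 library per genotype. Grey lines join the 2 values of a gene; 24 genes are lower in KO, Cyp51 the widest at 4.44 in KO and 29.8 in WT, and Abcb1b is the only one at least 1.5-fold higher in KO, at 14.5 against 7.65 in WT.

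Cyp51, the lanosterol demethylase of cholesterol synthesis, had 4.44 per kb in KO and 29.8 per kb in WT. Cldn12, a claudin, had 5.96 per kb in KO and 25.6 per kb in WT, but its RefSeq span is 9.96 kb against 25.4 kb in the table. Pttg1ip2 had 4.28 per kb in KO and 16.1 per kb in WT. Krit1 and Ankib1, which start next to each other on opposite strands and have equal promoter values, had 5.18 and 6.37 per kb in KO and 13.9 and 13.6 per kb in WT. Abcb1b, a multidrug transporter gene, had 14.5 per kb in KO and 7.65 per kb in WT. Its neighbouring paralogue Abcb1a had 3.25 per kb in KO and 8.87 per kb in WT, but the RefSeq span of Abcb1a is 181 kb against 88.5 kb in the table. Where the sequences of the paralogues are alike, reads may be assigned to either, so these values are uncertain.

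The promoters of the block were measured in other libraries. The block was chosen with earlier results of these data known, so the promoter values also describe it and support nothing. In the vitro pair, promoter H3K27ac was lower in KO at 29 of 29 genes (log2 -1.06 pooled), against 54.7% of all genes of at least 20 kb. Promoter H3K27ac without the vitro label was lower in KO at 10 of 29, against 33.7% of all such genes, with a pooled log2 of 0.32. Promoter H3K27me3 was lower in KO at 17 of 29, against 37.1%. Neighbouring promoters can share reads, so these counts are not independent.

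Cyp51, Cdk14 and Pttg1ip2 are shown because all 3 were lower in KO although their promoters differ widely in CG content. The lines show the RefSeq promoter, 250 bases before to 50 after the gene start (GRCm38.p6, minus strand, 5′ to 3′), with each CG dinucleotide, the site of DNA methylation, in capitals. The windows are chr5:4104648-4104947, chr5:5380202-5380501 and chr5:5479094-5479393 in the order shown. The RefSeq start used for Cdk14 lies inside the gene as the table gives it (576.9 kb in RefSeq against 616.9 kb), so the deposited promoter values of this gene may belong to another window.

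Cyp51: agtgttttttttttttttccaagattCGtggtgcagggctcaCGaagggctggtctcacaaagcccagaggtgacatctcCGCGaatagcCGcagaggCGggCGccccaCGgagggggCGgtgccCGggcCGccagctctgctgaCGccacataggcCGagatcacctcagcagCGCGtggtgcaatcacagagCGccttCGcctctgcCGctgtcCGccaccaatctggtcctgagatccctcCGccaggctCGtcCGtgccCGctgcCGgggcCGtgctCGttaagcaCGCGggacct
Cdk14: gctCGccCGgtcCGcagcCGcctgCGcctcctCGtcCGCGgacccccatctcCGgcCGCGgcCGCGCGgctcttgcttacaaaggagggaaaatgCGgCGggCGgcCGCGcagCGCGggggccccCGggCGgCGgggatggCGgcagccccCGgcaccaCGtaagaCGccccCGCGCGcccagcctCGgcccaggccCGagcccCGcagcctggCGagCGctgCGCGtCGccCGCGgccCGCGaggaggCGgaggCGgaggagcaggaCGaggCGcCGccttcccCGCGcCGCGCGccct
Pttg1ip2: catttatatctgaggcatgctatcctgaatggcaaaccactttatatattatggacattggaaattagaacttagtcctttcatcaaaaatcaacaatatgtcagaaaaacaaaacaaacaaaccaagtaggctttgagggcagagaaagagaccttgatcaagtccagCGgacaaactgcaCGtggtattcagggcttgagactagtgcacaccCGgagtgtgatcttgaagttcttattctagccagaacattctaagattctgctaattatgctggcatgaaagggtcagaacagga

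The Cyp51 window holds 28 CG dinucleotides, and 14.2% of 32851 RefSeq mouse promoters hold at least as many. The Cdk14 window holds 53, which 0.451% reach, and the Pttg1ip2 window holds 3, which 76.7% reach. Promoter H3K27ac in the vitro pair was 46.7 per kb in KO and 206 per kb in WT at Cyp51, 93.9 per kb in KO and 175 per kb in WT at Cdk14, and 16.2 per kb in KO and 34.4 per kb in WT at Pttg1ip2. In the pair without the vitro label it was 49.0 per kb in KO and 50.1 per kb in WT at Cyp51, 37.6 per kb in KO and 31.9 per kb in WT at Cdk14, and 4.6 per kb in KO and 12.6 per kb in WT at Pttg1ip2.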

How the data were processed

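The table of the authors holds signal, the mean coverage per base in gene bodies or promoters, per the file headers. Per the submitters' processing notes, Bowtie2 2.4.2, HOMER, MACS2 2.2.7.1 and mm10 were used, with settings that are not given in these sources. The deposited signal was multiplied by 1000. Rows of 1 gene were joined (25450 rows, 25440 genes), and symbols matched RefSeq in 25041 rows, with an older symbol in 105 and none in 304. Genes were counted at 2-fold and list members at 1.5-fold differences, with the 25th percentile of positive values as floor and pseudocount, so ratios of low genes are understated. Tags are the value times the RefSeq span over the step of each library, and 91.0% (KO) and 85.3% (WT) of the values used lay within 0.006 of a step. Overlapping genes (26.4% of those with coordinates) can share reads. The overlap is not given above for every named gene, and Tk1, Msh6, Hagh, Atrx, Trip12, Arhgap26 and Sorcs2 are among those that also overlap another gene.

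Members, lists and thresholds were chosen with earlier results of these data known. Named genes were Setd2, the 3 highest and 3 lowest ratios of each span class among genes positive in both libraries and above the median level, the 6 highest levels and 6 largest differences of at least 100 kb, the highest values opposite a 0, and up to 3 list members by difference and by level. The same rule was repeated over genes with agreeing spans, and block genes, Huwe1 and further members of the H3K36, elongation and marker lists were named outside it after their values were seen. A gene that the rule names is not reported here. The code was tested on simulated data. Alternatives changed the pseudocount, floor, scaling, span, overlap, weighting and grouping. Python 3.11.15, pandas 2.3.3, numpy 2.4.6, scipy 1.17.1 and matplotlib 3.10.9 were used.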

Additional observations from a re-analysis of the deposited data

How the results depend on the processing

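No value has a replicate error, and no library could be left out. No paired analysis was possible because each genotype has only 1 library. The counts of genes at least 2-fold higher and lower in KO were 3118 and 3192. They were 936 and 1034 with a pseudocount 5 times larger, 1811 and 2041 with the floor at the median, 1260 and 1879 without genes at 0 in either library, 602 and 809 at 20 kb and above, and 1792 and 1989 with agreeing spans. The SD of the ratio under 3 kb and at 100 kb and above was 5.005 and 0.68 with a pseudocount 5 times smaller, and 1.73 and 0.18 with it 5 times larger. Pooled log2 ratios, in the order of rising span, were -0.0882, -0.0849, -0.16, -0.16, -0.0978 and -0.0209 with RefSeq spans. Without overlapping genes they were -0.0605 under 3 kb, -0.0982 at 3 to 10 kb, -0.16 at 10 to 20 kb, -0.14 at 50 to 100 kb and -0.0197 at 100 kb and above. With agreeing spans they were -0.0647 under 3 kb, -0.20 at 10 to 20 kb, -0.17 at 20 to 50 kb, -0.12 at 50 to 100 kb and -0.0234 at 100 kb and above. Means over genes gave -0.66 under 3 kb, -0.14 at 3 to 10 kb, -0.14 at 50 to 100 kb and -0.0501 at 100 kb and above. Without the highest 1% of genes the ratio under 3 kb turned to 0.00422, and it was -0.17 at 10 to 20 kb, -0.12 at 50 to 100 kb and -0.0267 at 100 kb and above. Without X and Y it was -0.19 at 10 to 20 kb and -0.16 at 20 to 50 kb. The share at 0 under 3 kb was 79.9% in KO and 84.0% in WT with RefSeq spans, and 67.1% in KO and 75.7% in WT without overlapping genes. At 100 kb and above it was 0.12% in both libraries with RefSeq spans, 0.116% in KO and 0.348% in WT without overlapping genes, and 0% in KO and 0.0497% in WT with agreeing spans. The log2 contrast over promoter H3K27ac groups was lower in KO under each setting run. KO minus WT was -0.21 at 20 kb and above and -0.19 at 100 kb and above. It was -0.19 and -0.16 with vitro groups, -0.23 and -0.22 without overlapping genes, and -0.25 and -0.18 with agreeing spans. At 100 kb and above it was also -0.16 with RefSeq spans and -0.20 without X and Y. Chromosome 1 had 0.21 with all spans and 0.20 with agreeing spans, chromosome 5 -0.28 and chromosome 18 -0.27 with agreeing spans. The correlation with neighbours was 0.12 within 3 Mb and 0.10 with agreeing spans. Agreeing spans were chosen after seeing the data. Of 179 named genes under 6 settings, 0 with at least a 1.5-fold difference changed sign. A change of pseudocount, floor or filter cannot change the sign of a ratio. Centring moved ratios by less than a 1.5-fold difference. Only quantile normalization could therefore have changed a sign, so this count is little evidence of stability. The causes of the shifts in this section were not tested, apart from the fewer genes counted in each subset.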
